A study of Lachancea kluyveri with 31 samples.

Results

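Deletion of *SEF1* was compared with wild type (WT) in low-iron medium across the transcriptome of *Lachancea kluyveri*, outside the iron-uptake genes. The samples were chosen by their titles and comprised the 4 *sef1*Δ arrays and the 4 WT arrays from low-iron medium, of 31 arrays in the series. The genes were the 5285 with a tested value, of 5316 with a probe, once *SEF1* itself and 29 iron-uptake-related genes had been set aside. The *sef1*Δ strain SkSef1KA1 was 1 clone with the genotype MATa *ura3* *sef1*Δ::KanMX6, and it was compared with its MATa *ura3* parent JYL1897. Both strains were grown overnight in rich glucose medium (YPD) at 28 °C, diluted to 0.5 OD600/ml, and kept for 5.5 h at 30 °C in YPD with the iron chelator bathophenanthroline disulfonate (BPS), here called low iron. High-iron cultures received ferrous iron in place of the chelator. The labels give 200 mM BPS and 400 mM iron, and the study's text gives the same amounts in µM. The *aft1*Δ and *sef1*Δ *aft1*Δ strains, which lack the other regulator studied, were grown in the same way and are used below only where they bear on a *sef1*Δ value.

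Sef1 is a zinc-cluster transcription factor. In *Candida albicans* it activates iron-uptake genes, whereas in *L. kluyveri* the study also examined its link to the tricarboxylic acid (TCA) cycle and respiratory growth. The TCA cycle oxidizes acetyl-CoA in the mitochondrion and feeds electrons to the respiratory chain, and several of its enzymes, such as aconitase and succinate dehydrogenase, hold iron-sulfur clusters. Gluconeogenesis and the glyoxylate shunt let yeast build sugar from acetate, lactate or glycerol, and their genes are usually low while glucose lasts.

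All levels are log2 of the array signal minus the 75th percentile of the same array, so that a level of 0 is the brightness exceeded by 1 probe in 4, and a difference of 1 is a 2-fold change. A gene was called when its fold change was at least 1.5 and its limma adjusted p at most 0.05. Levels of different probes are not compared. *SEF1* stood at −7.30, −6.77, −7.05 and −6.89 on the 4 *sef1*Δ arrays, against −2.19, −1.93, −1.95 and −2.09 in WT, and 3 of the 4 *sef1*Δ spots were well above background. Correlations between arrays over all genes lay between 0.9873 and 0.9943 within *sef1*Δ and between 0.986 and 0.9914 within WT, and between 0.948 and 0.9611 across the strains. The a-cell genes STE2, STE6 and AGA2 averaged 3.48, 2.95 and 3.14 in *sef1*Δ and 3.97, 3.28 and 3.12 in WT. The alpha-cell genes STE3 and SAG1 averaged −1.71 and −1.22 in *sef1*Δ and −1.82 and −1.82 in WT. Of these marker genes SAG1 was called higher in *sef1*Δ, by 0.60 in low and 0.595 in high iron (limma adjusted p = 0.0141 and 0.0289). Each strain lay on a slide of its own, and WT was scanned in another session than the mutants, so that strain and slide cannot be told apart in the *sef1*Δ against WT comparison.

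At low iron, 533 genes were called higher and 607 lower in *sef1*Δ than in WT, which is 10.1% and 11.5% of the 5285 genes and 21.6% together. The median log2 difference over all genes was −0.01. At a fold change of at least 2, 128 genes remained higher and 245 lower, and at 4-fold the counts were 7 and 41. The arrays of the strains did not overlap for 1104 of the called genes, beside 2390 of all genes (45.2%). The split by direction depended on the probe and on the scaling. Of the 5273 genes with a second probe, 1275 were called higher and 304 lower on that probe, with a median of 0.21 over all genes, and the mean of both probes gave 746 higher and 384 lower. Of the calls on the main probe, 385 of 529 higher genes were also called higher on the second probe and 216 of 606 lower genes also lower. Values below are for the main probe. Where the second probe did not make the low-iron call of a gene discussed, its value is given too. Values for high iron, the interaction, low against high iron within a strain and the *aft1*Δ background are given for the main probe only. Of the main-probe calls, 46.8% were higher with the 75th percentile, 34.2% with quantile normalization and 30.8% with the array median as the scale, and these scaling alternatives put the median of all genes at −0.08 and −0.12. Of 24 gene lists, that of gluconeogenesis, glyoxylate and acetate use had the lowest median difference and that of ribosome biogenesis the highest.

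Several enzymes of the TCA cycle were lower in *sef1*Δ. Of 21 genes, 10 fell, 2 rose and 9 were not called (47.6% lower, beside 11.5% of all genes). Their median log2 difference was −0.54, beside −0.01 over all genes. With the second probe 7 of the 10 were called lower too and neither of the 2 was called higher, and the median was −0.455, beside 0.21 over all genes. IDH1 and IDH2 encode the 2 subunits of the mitochondrial NAD-dependent isocitrate dehydrogenase. IDH2 stood at 0.70, 0.69, 0.81 and 0.80 on the *sef1*Δ arrays, against 2.33, 2.26, 2.20 and 2.13 in WT. IDH1 stood at 0.66, 0.98, 0.83 and 0.87 in *sef1*Δ, against 2.26, 2.21, 2.34 and 2.25 in WT. For both subunits the strains were far apart, with differences of −1.48 ± 0.09 (SE) for IDH2 and −1.43 ± 0.09 for IDH1 (limma adjusted p = 6.68e-14 and 4.13e-13). ACO1, the aconitase that makes isocitrate from citrate, stood at 1.31, 1.15, 1.26 and 1.39 in *sef1*Δ, against 2.54, 2.73, 2.78 and 2.68 in WT. It fell by 1.41 (SE 0.14, limma adjusted p = 1.45e-09), so that the step before the NAD-dependent dehydrogenase and the dehydrogenase itself fell by similar amounts.

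IDP3, the NADP-dependent isocitrate dehydrogenase that is peroxisomal in *Saccharomyces cerevisiae*, fell most among these genes. Its level was −4.47, −4.66, −4.51 and −4.53 in *sef1*Δ, against −0.69, −1.54, −1.55 and −1.87 in WT, a difference of −3.13 ± 0.27. The *sef1*Δ arrays lay close together and below all the more spread WT arrays. The mitochondrial NADP-dependent enzyme IDP1 fell by 0.74, and its second probe gave −0.455, not called. Citrate synthase, CIT1, which joins acetyl-CoA to oxaloacetate, averaged 3.31 in *sef1*Δ and 4.12 in WT and fell by 0.80. All 4 succinate dehydrogenase subunits fell, by 0.83 for the membrane anchor SDH4, 0.78 for the iron-sulfur subunit SDH2, 0.76 for the flavoprotein SDH1 and 0.63 for the anchor SDH3. On the second probe SDH1 and SDH2 were called too, whereas SDH4 gave −0.52 and SDH3 −0.13, not called.

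None of the other TCA cycle genes was called lower on the main probe. The 2-oxoglutarate dehydrogenase subunit KGD1 and the succinyl-CoA ligase subunits LSC1 and LSC2 differed by −0.40, −0.54 and −0.39, under the fold threshold although their limma adjusted p was 0.00389 or less, and LSC2 was called lower on its second probe, by 0.63. Fumarase, FUM1, differed by −0.29 on its main and 0.12 on its second probe, and malate dehydrogenase MDH1 by −0.06. KGD2, the E2 subunit of the 2-oxoglutarate dehydrogenase, was 0.51, 0.70, 0.71 and 0.38 in *sef1*Δ, against 0.33, −0.07, −0.23 and −0.27 in WT, and rose by 0.63. Its second probe gave 0.01, not called. CIT3, a minor citrate synthase of *S. cerevisiae*, rose by 1.22, but its WT spots were well above background on only 1 of 4 arrays and its second probe gave 0.17, not called.

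**Figure D1:**
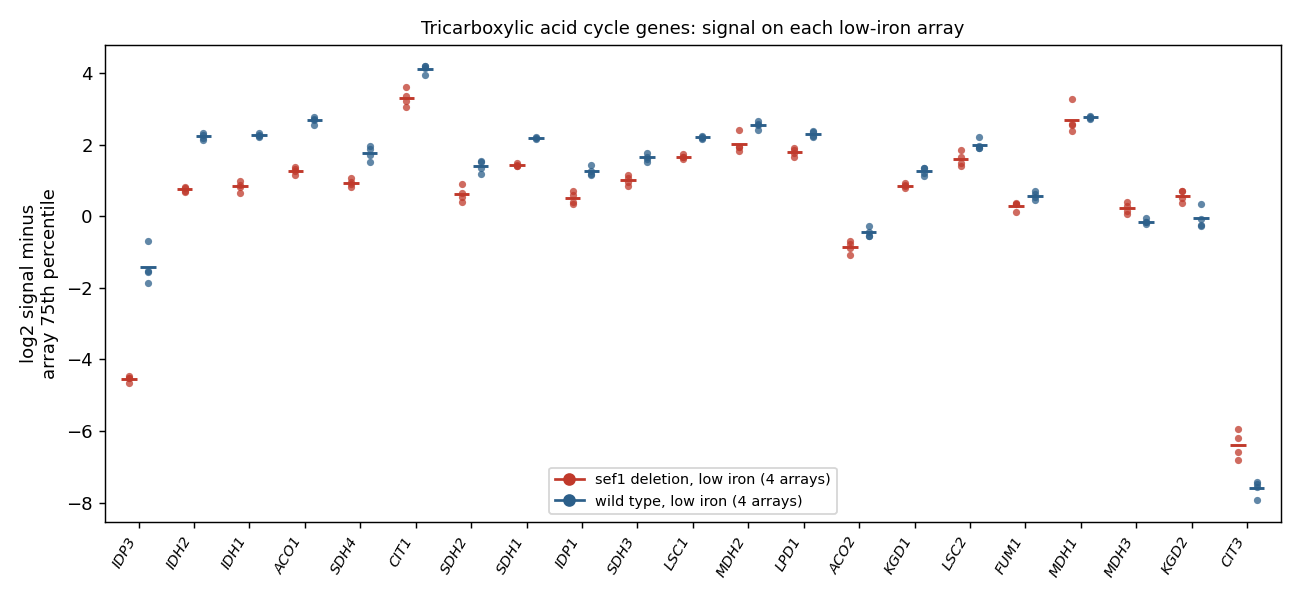
Level of the 21 TCA cycle genes on each low-iron array, in log2 signal minus the array's 75th percentile, with *sef1*Δ in red to the left of WT in blue for each gene. Points are arrays and bars are means of 4. From IDP3 to SDH3 all *sef1*Δ arrays lie below all WT arrays, whereas KGD2 and CIT3 at the right lie above.

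Genes for growth on acetate, lactate and glycerol were also lower. Of 26 genes of gluconeogenesis, the glyoxylate shunt and acetate use, 19 fell and 1 rose, with a median of −0.92. The share lower was 73.1%, beside 11.5% of all genes. The second probe called 14 of the 19 lower too, and the calls lost were ICL2 (−0.14), ALD5 (−0.345), ATO3 (−0.33), STL1 (−0.45) and ACH1 (−0.15). PCK1, phosphoenolpyruvate carboxykinase, commits carbon to glucose synthesis. Its level was −3.32, −3.74, −3.09 and −2.97 in *sef1*Δ, against −0.80, −1.0, −1.09 and −0.38 in WT, and it fell by 2.46 (SE 0.21, limma adjusted p = 1.17e-10), and by 1.14 on its second probe. FBP1, fructose-1,6-bisphosphatase, the other enzyme specific to that route, fell by 1.68 and pyruvate carboxylase PYC1 by 1.46. The glyoxylate shunt enzyme isocitrate lyase, ICL1, fell by 1.06, while malate synthase MLS1 differed by −0.42 and was not called.

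The carriers that bring these substrates into the cell or the mitochondrion fell with them. JEN1 (SAKL0G14938g), the lactate and pyruvate permease, stood at −0.65, −0.68, −0.83 and −0.53 in *sef1*Δ, against 1.64, 1.18, 1.34 and 1.90 in WT, a difference of −2.19 ± 0.25. SFC1, the mitochondrial succinate-fumarate carrier, stood at −4.43, −4.67, −4.73 and −4.58 in *sef1*Δ, against −2.32, −2.53, −2.57 and −2.65 in WT. ADY2, an acetate permease, stood at −4.37, −4.14, −4.26 and −4.35 in *sef1*Δ, against −1.88, −2.75, −2.79 and −2.31 in WT. None of these 3 carriers had overlapping arrays, and SFC1 and ADY2 fell by 2.09 and 1.85. The acetyl-CoA synthetase ACS1 fell by 1.52, and the acetaldehyde dehydrogenase ALD4 by 1.03. GUT1, glycerol kinase, fell by 1.79, and ADR1, which in *S. cerevisiae* activates genes for non-fermentable carbon, by 1.34. The acetyl-CoA synthetase that *S. cerevisiae* uses on glucose, ACS2, differed by 0.42 and was not called. The 1 gene that rose was CTP1, the mitochondrial citrate carrier, by 1.17.

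Among 29 genes of the respiratory chain and ATP synthase, 7 fell and 1 rose (27.6% called, beside 21.6% of all genes), with a median of −0.27. The falls were largest in the enzymes that feed electrons in from outside the TCA cycle. NDE2 (SAKL0E05302g), an external NADH dehydrogenase in *S. cerevisiae*, stood at −0.41, −0.41, −0.74 and −1.04 in *sef1*Δ, against 1.12, 0.85, 0.89 and 0.63 in WT, and fell by 1.52. The other gene named NDE2, SAKL0D09658g, differed by 0.43 on its main and 0.30 on its second probe, neither called. CYB2 (SAKL0G16852g), named for the L-lactate dehydrogenase cytochrome b2, stood at 0.32, 0.03, −0.12 and −0.57 in *sef1*Δ, against 2.09, 1.40, 1.42 and 1.90 in WT, and fell by 1.78. The second gene of that name, SAKL0F16610g, fell by 1.17, and DLD1, the D-lactate dehydrogenase, by 1.09. The internal NADH dehydrogenase NDI1 and the complex III core subunit COR1 fell by 0.78 and 0.85. On the second probe NDE2 (SAKL0E05302g) was called lower, by 0.89, as were both CYB2 genes. DLD1 (−0.63), NDI1 (−0.185), COR1 (−0.53) and COX26 (−0.575) were not called there. The ATP synthase subunits ATP1, ATP3 and ATP5 differed by −0.57, −0.45 and −0.24 and were not called.

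Most glycolytic enzymes were not called, whereas some genes named for glucose sensing and uptake fell. Of 27 genes of glycolysis and fermentation, 7 fell and 1 rose (29.6% called, beside 21.6% of all genes, median −0.19). PFK1, PFK2, PGK1, ENO2, CDC19 and PDC1 (both genes) lay between −0.23 and 0.09, while 1 of 3 genes named TDH3 (glyceraldehyde-3-phosphate dehydrogenase) fell by 0.69 on its main probe only (0.05 on the second) and the alcohol dehydrogenase ADH3 (SAKL0E02838g) by 1.15. RGT2, named for a glucose sensor of *S. cerevisiae*, stood at −1.0, −0.73, −1.28 and −1.09 in *sef1*Δ, against 2.67, 2.12, 2.01 and 2.10 in WT, and fell by 3.25 (SE 0.32). HXT1, a hexose transporter, stood at −4.40, −4.46, −4.48 and −4.20 in *sef1*Δ, against −2.43, −2.30, −2.60 and −2.27 in WT. It fell by 1.99, while HXT3 rose by 0.78 and HXT4 differed by −0.11.

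Ribosome biogenesis genes went the other way. Of 38 genes, 18 rose and none fell (47.4% higher, beside 10.1% of all genes), with a median of 0.53. The second probe called 13 of the 18 higher too, and its median was 0.74, beside 0.21 over all genes. With limma, 2 of them were lower at an unadjusted p under 0.05 and the methods' t-test called 0 lower. The count was 12 after quantile normalization and 14 when WT replicate 1 was left out. RLP24, which in *S. cerevisiae* acts in assembly of the large subunit, stood at −1.20, −1.20, −1.03 and −1.09 in *sef1*Δ, against −3.99, −3.23, −3.31 and −3.89 in WT. It rose by 2.48 (SE 0.15, limma adjusted p = 1.71e-13), and by 1.51 on its second probe. RPC11, a subunit of RNA polymerase III, stood at −3.85, −3.85, −3.30 and −3.55 in *sef1*Δ, against −5.97, −5.07, −4.74 and −4.94 in WT, a rise of 1.54. MAK16, another large-subunit factor, was −2.44, −2.59, −2.38 and −2.43 in *sef1*Δ, against −4.26, −3.78, −3.84 and −4.10 in WT, and rose by 1.53. ENP1, a small-subunit factor, rose by 1.48 and had only 3 WT values because 1 spot was marked as uneven. For these 4 genes the *sef1*Δ arrays were all above the WT arrays.

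The small-subunit processing factors BFR2, SAS10 and UTP4 rose by 1.26, 1.19 and 1.17, and the exosome subunit RRP45 by 0.93 (0.54 on its second probe, not called). Among subunits of RNA polymerase I, RPA12 rose by 1.01 whereas RPA135 and RPA14 differed by 0.20 and 0.32 on the main probe. The second probe called RPA12 and RPA14 higher, by 1.08 and 1.11, while RPA135 gave 0.51, not called. MAK32, which entered by the prefix of its name and is not known as a ribosome factor, rose by 0.64. NSA2, a large-subunit factor outside the list, rose by 1.58 and was also among the 10 largest rises of genes with an ortholog name. The ribosomal proteins themselves moved less. Of 73 cytosolic ribosomal protein genes, 4 rose and none fell (5.48% higher, beside 10.1% of all genes), with a median of 0.17. The 4 were RPS8B, by 0.90, RPL8A, by 0.75, RPL36B, by 0.69, and RPL22B, by 0.64. None of these 4 was called on its second probe, where they differed by 0.19, 0.44, 0.25 and 0.40. That probe called 15 other members of the 73 higher and none lower. Its median for the list was 0.38, beside 0.21 over all genes, of which 1275 of 5273 were called higher. In the mitochondrial ribosome 1 of 23 genes rose and 3 fell (17.4% called, beside 21.6% of all genes). MRPL11 fell by 2.02 (−0.86 on its second probe, also called) and MRP49 by 1.08.

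**Figure D2:**
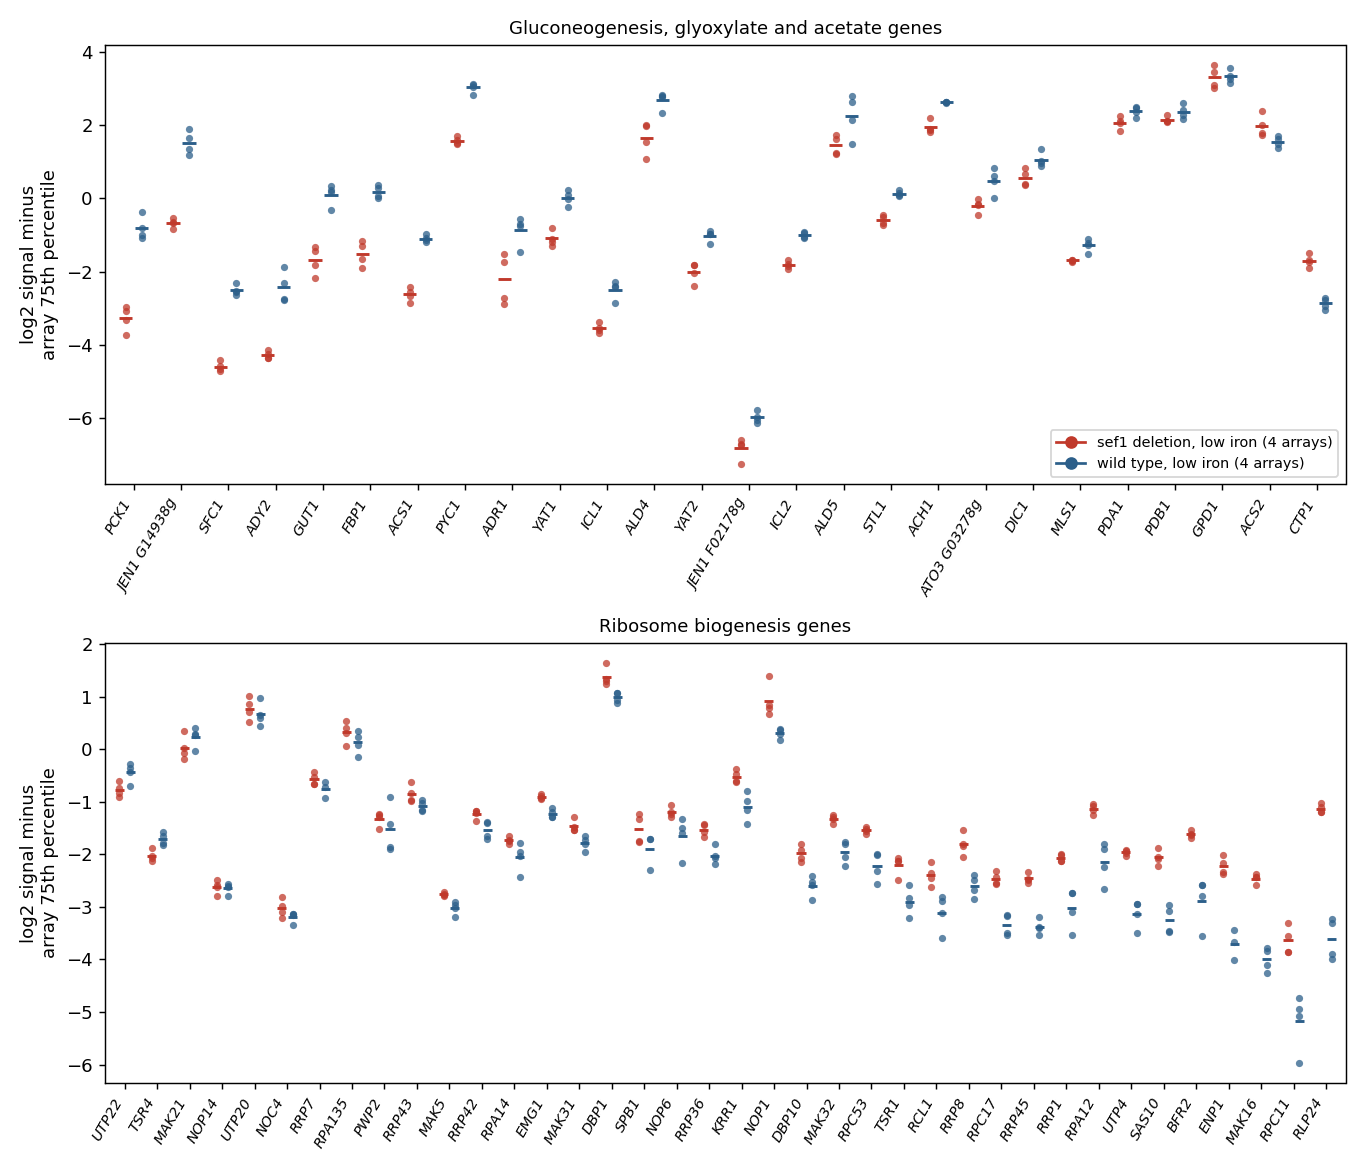
Level on each low-iron array, in log2 signal minus the array's 75th percentile, of the 26 genes of gluconeogenesis, glyoxylate and acetate use (top) and of the 38 ribosome biogenesis genes (bottom), with *sef1*Δ in red to the left of WT in blue. Points are arrays and bars are group means. The largest fall at the top is PCK1, by 2.46, and the largest rise at the bottom is RLP24, by 2.48.

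Cell cycle and DNA replication genes included 6 of 32 that rose and none that fell (18.8% higher, beside 10.1% of all genes, median 0.12). The second probe called 12 of 31 higher and none lower (median 0.395), beside 1275 of 5273 higher and a median of 0.21 over all genes. POL30, the sliding clamp of replication, averaged 0.53 in *sef1*Δ and −0.53 in WT and rose by 1.06. POL12, a subunit of polymerase alpha, and ORC2, of the origin recognition complex, both rose by 0.94, and the G1 cyclin gene CLN2 (SAKL0A02508g) by 0.82. The replicative helicase genes MCM2, MCM3, MCM5 and MCM6 lay between −0.30 and 0.12 on the main probe. MCM7 rose by 0.63 (0.41 on its second probe, not called). The second probe called MCM6 and MCM2 higher, by 0.91 and 0.645, but not MCM3 (0.39) or MCM5 (0.14). DAD1, a kinetochore protein, was −3.19, −2.90, −2.77 and −3.03 in *sef1*Δ, against −4.63, −4.83, −4.81 and −4.54 in WT, a rise of 1.73.

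In the list of amino acid and nitrogen transport 9 of 28 genes fell and 3 rose (32.1% lower, beside 11.5% of all genes, median −0.34). The list also holds enzymes and regulators. The 3 that rose, CHA1, DAL1 and UGA3, are not transporters, and UGA2, CAR2 and SSY1 among the falls are not either. On the second probe 5 genes fell, of which 4 were among the 9, and the median was −0.04. GAP1, the general amino acid permease, stood at −2.98, −3.40, −3.23 and −3.41 in *sef1*Δ, against −1.52, −1.87, −1.97 and −2.44 in WT, and fell by 1.31. DIP5, a dicarboxylic amino acid permease, stood at −0.86, −1.10, −1.02 and −1.16 in *sef1*Δ, against 0.41, −0.14, 0.11 and 0.64 in WT, and fell by 1.29. Neither pair of groups overlapped, and the second probe of GAP1 gave −1.10, also called. SSY1, the amino acid sensor, and UGA4, the GABA permease, fell by 1.69 and 1.52, but their second probes gave 0.11 and 0.49. GDH2, the NAD-dependent glutamate dehydrogenase that releases ammonium, fell by 1.07, and its second probe gave −0.355, not called. The ammonium permease MEP2 differed by 0.14.

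Of 49 genes in the lists of amino acid synthesis, 7 rose and 5 fell (24.5%, beside 21.6% of all genes). The transcription factor GCN4 rose by 0.82, and ILV5, of valine and isoleucine synthesis, by 0.70, but neither was called on the second probe (0.30 and 0.12), while 5 of the 7 branched-chain genes were not called. Among 10 sulfur amino acid genes 3 rose (30.0%, beside 10.1% of all genes). MET28, a regulator of sulfur metabolism, stood at −2.30, −2.51, −2.01 and −2.17 in *sef1*Δ, against −3.90, −3.52, −3.57 and −3.44 in WT. MET28 rose by 1.36, MET32 by 0.81 and MET8 by 0.72 (0.47 on its second probe, not called). Of 13 lysine and arginine genes 3 fell and 1 rose (30.8% called, beside 21.6% of all genes). None of the 3 that fell, LYS4, LYS14 (0.25) and GDH2 (−0.355), was called on its second probe. The lysine gene LYS4, whose product is an iron-sulfur enzyme, fell by 0.77, and its second probe gave 0.21, not called.

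Lists tied to iron inside the cell differed in their calls. Of 7 heme-list genes and 5 ergosterol-list genes none was called on the main probe by limma or by the methods' t-test. Their medians were −0.06 and −0.05. At an unadjusted limma p under 0.05 there were 4 and 1. The heme list holds CYC3 and the regulator genes named ROX1 beside synthesis enzymes, and the ergosterol list holds the regulator UPC2. The second probe called 2 of the heme list higher, HEM1 by 1.19 and ROX1 (SAKL0C03916g) by 0.63. It also called 1 of the ergosterol list higher, UPC2 by 0.615. The medians on that probe were 0.36 and −0.03, beside 0.21 over all genes. Among 16 genes for iron-sulfur cluster assembly and use, 5 were called (31.2%, beside 21.6% of all genes). Of these, 3 rose on both probes, namely RLI1 by 0.80, GRX4 by 0.68 and the mitochondrial GTP carrier GGC1 by 0.67. CIA1, of the cytosolic assembly machinery, and LYS4 fell, by 0.59 and 0.77, but were not called on the second probe (−0.27 and 0.21). That probe called 6 of the 16 higher, the 3 rises among them. It called 3 others lower, MMT2 by 0.67, BIO2 by 0.73 and ISA1 by 0.80, which were not called on the main probe. Its median for the list was 0.42, beside 0.21 over all genes. The scaffold ISU1 differed by 0.02. Of the 3 genes that rose, RLI1 is a ribosome recycling factor that holds clusters, and GRX4 a glutaredoxin that acts in iron sensing in *S. cerevisiae*.

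Phosphate genes held some of the largest falls. PHO84, the high-affinity phosphate permease, stood at 0.40, −0.33, −0.37 and −1.25 in *sef1*Δ, against 2.05, 2.68, 3.14 and 1.86 in WT, and fell by 2.82 (SE 0.26, limma adjusted p = 3.6e-10). SPL2, which in *S. cerevisiae* represses low-affinity phosphate uptake, stood at −4.32, −4.60, −4.27 and −4.25 in *sef1*Δ, against −1.93, −1.82, −1.88 and −1.40 in WT. It fell by 2.60 (−1.135 on its second probe, also called), and VTC2, of polyphosphate synthesis, by 0.72 (−0.51 on its second probe, not called), whereas the low-affinity permease genes PHO90 and PHO91 differed by −0.43 and 0.08. In the list of zinc, copper, phosphate and polyamine transport, which holds SPL2 but not PHO84, 4 of 14 fell and 2 rose. The share called was 42.9%, beside 21.6% of all genes. The zinc regulator ZAP1 and CUP2, named for the copper regulator, were the rises, by 0.80 and 0.85.

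Stress genes did not move as a block. The shares called were 17.4% for heat shock, 33.3% for oxidative stress, 21.1% for fatty acid and peroxisome and 17.4% for cell wall genes. For drug efflux, mating and autophagy they were 23.1%, 7.69% and 14.3%, beside 21.6% of all genes. Of 23 heat shock and chaperone genes 4 rose (median 0.03), led by FES1, an Hsp70 exchange factor, at 0.82, 0.73, 0.89 and 1.01 in *sef1*Δ, against −1.20, −0.76, −0.90 and −0.33 in WT. FES1 rose by 1.66 and the mitochondrial J-protein MDJ1 by 1.21, while HSP12, HSP26, HSP42 and HSP104 lay between −0.53 and 0.18. Of 18 oxidative stress genes 4 rose, among them OYE2 by 1.15, which had no second-probe value, and thioredoxin reductase TRR2 by 0.88. Catalase A (CTA1) and cytochrome c peroxidase (CCP1) fell, by 0.75 and 0.74, although neither was called on its second probe (−0.31 and 0.09). POX1, the acyl-CoA oxidase that begins peroxisomal beta-oxidation, fell by 1.22, with 3 of 19 fatty acid and peroxisome genes falling in all. In the cell wall list 4 of 23 fell and none rose, and only CWP2, which fell by 0.95, was called on its second probe too. In drug efflux PDR1 (by 1.09), PDR15 (SAKL0G08008g) and BPT1, 3 of 13, fell on the main probe. On the second probe PDR1 gave −0.12 and this PDR15 −0.33, neither called, and BPT1 was called higher, by 0.59. That probe called 3 of the 13 higher, BPT1 among them. It called 2 others lower, PDR15 (SAKL0C11704g) by 0.69 and QDR3 by 0.59. The mating list, which does not hold SAG1, had 1 call of 13, FUS1, and autophagy and vacuole genes had 2 of 14, ATG22 and PRB1. FUS1, ATG22 and PRB1 were lower on the main probe and not called on the second (−0.38, 0.13 and −0.035).

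**Figure D3:**
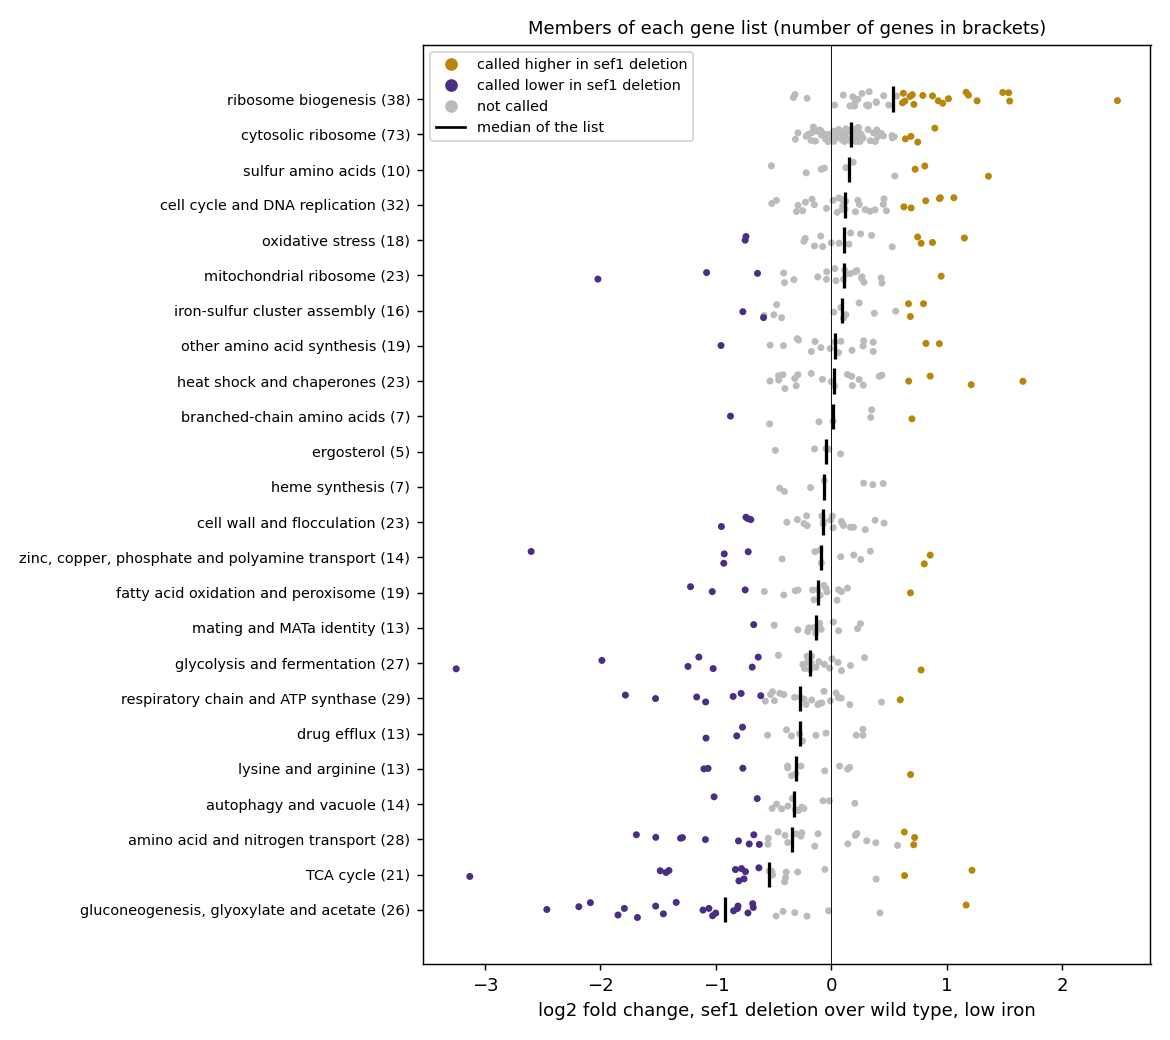
Log2 fold change of *sef1*Δ over WT at low iron for the members of 24 gene lists, ordered by median, with calls in colour. The medians run from 0.53 for ribosome biogenesis at the top to −0.92 for gluconeogenesis, glyoxylate and acetate at the bottom, and the median of all genes is −0.01.

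The largest falls included genes with no *S. cerevisiae* name here. SAKL0F13750g stood at −2.08, −2.46, −2.61 and −2.39 in *sef1*Δ, against 0.90, 1.03, 1.05 and 0.76 in WT. SAKL0H13178g stood at −5.41, −5.57, −5.20 and −5.57 in *sef1*Δ, against −2.66, −2.31, −2.65 and −1.97 in WT. Both were lower on every *sef1*Δ array than on any WT array. MNE1, named for a mitochondrial RNA-splicing factor of *S. cerevisiae*, differed by −3.24 on its main probe, but its second probe gave 0.41, not called. REC8, a meiotic cohesin, differed by −3.02 on its main probe and by −0.14 on its second, not called. MAL11, a maltose transporter, fell by 2.79 and PDH1, which acts in propionate metabolism in *S. cerevisiae*, by 2.77, and both were called on both probes.

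Low levels of several of these genes were also seen without Aft1. SAKL0F13750g averaged −2.38 in *sef1*Δ, −2.65 in *sef1*Δ *aft1*Δ, −2.22 in *aft1*Δ and 0.93 in WT. IDP3 averaged −4.54 in *sef1*Δ, −3.83 in *sef1*Δ *aft1*Δ, −4.02 in *aft1*Δ and −1.41 in WT, and RGT2 −1.02, −1.67, −1.01 and 2.23 in the same order. The comparisons of both single mutants with WT share the 4 WT arrays, and the mutants were scanned together in another session than WT, which was not tested as a factor in these values.

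The largest rises included PKP1, RLP24, MAE1 and genes without a name. MAE1, the mitochondrial malic enzyme, stood at −0.11, 0.19, 0.38 and 0.46 in *sef1*Δ, against −2.27, −1.76, −2.55 and −2.39 in WT, and rose by 2.47 (SE 0.18, limma adjusted p = 7.18e-12). PKP1, the kinase that inactivates pyruvate dehydrogenase, stood at −2.10, −2.46, −4.20 and −2.52 in *sef1*Δ, against −5.65, −5.11, −5.70 and −5.08 in WT. The third *sef1*Δ array lay well below the others but still above WT, and PKP1 rose by 2.56 with an SE of 0.42, and by 0.81 on its second probe. SAC6, the actin-bundling fimbrin, stood at 0.80, 0.84, 0.75 and 0.95 in *sef1*Δ, against −1.34, −1.11, −1.39 and −0.65 in WT, a rise of 1.96. STR3, cystathionine beta-lyase, was 1.75 higher on its main probe and 1.00 lower on its second probe, and both were called, so that it has no settled direction.

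Of the 10 genes nearest to the deleted locus, 5 on each side of *SEF1*, 8 were not called on the main probe, with differences from −0.28 to 0.40. By the second probe 3 of these 8 were called higher, KIP1 by 1.02, SAKL0F12474g by 0.80 and SHC1 by 0.595. The outermost genes on each side were called on both probes. YEL1, an exchange factor for a small GTPase in *S. cerevisiae*, stood at −1.86, −1.59, −1.84 and −1.45 in *sef1*Δ, against −2.60, −2.80, −2.91 and −3.30 in WT, and rose by 1.22. KTI11, of diphthamide and tRNA modification, stood at −3.50, −3.27, −3.31 and −3.39 in *sef1*Δ, against −4.71, −4.56, −4.80 and −4.96 in WT, and rose by 1.39. The immediate neighbours PRX1 and UBP9 differed by 0.07 and −0.27.

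The same strains were also compared in high iron. There 417 genes were higher and 525 lower in *sef1*Δ (7.89% and 9.94% of 5282, 17.8% together, median 0.01), on 3 *sef1*Δ and 4 WT arrays that the low-iron comparison did not use. Of the low-iron calls, 265 of the higher genes were also called higher in high iron (49.7% of the low-iron and 63.5% of the high-iron calls), and 385 of the lower genes were also lower (63.4% and 73.3%). Only 2 genes were called in opposite directions. The slide offset between the strains, if any, is shared by both media.

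IDH1 averaged 0.73 ± 0.05 in *sef1*Δ and 2.25 ± 0.16 in WT in high iron (SD, n = 3 and 4), and IDH2 0.79 ± 0.04 and 2.27 ± 0.07. These are near the low-iron levels in both strains, and the interactions were 0.08 and −0.01, not called. ACO1 averaged 2.16 in *sef1*Δ and 3.23 in WT in high iron, above the low-iron levels in both strains, with differences of −1.08 in high iron and −1.41 in low iron. PCK1 fell by 2.57 in high iron, SFC1 by 1.70 and ADY2 by 1.45. By list, 15 of 26 gluconeogenesis genes fell in high iron and none rose, 6 of 21 TCA cycle genes fell, and 11 of 38 ribosome biogenesis genes rose (median 0.18).

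The interaction, which tests whether the strain difference itself depended on iron and cancels a slide offset, was called for 148 of 5282 genes (2.8%), and for 89 of the 1140 genes called at low iron. MAE1 averaged −0.25 in *sef1*Δ and −0.73 in WT in high iron, where it was not called, and 0.23 and −2.24 in low iron. Its interaction was 1.99 ± 0.27 (limma adjusted p = 0.000104). PHO84 averaged 0.66 in *sef1*Δ and 1.62 in WT in high iron, and −0.39 and 2.43 in low iron, an interaction of −1.86 (adjusted p = 0.00607). For PHO84 the *sef1*Δ mean was lower in low iron than in high iron, whereas the WT mean was higher.

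SNQ2 (SAKL0H21010g), named for a multidrug efflux pump, stood at −1.19, −1.64, −1.80 and −1.88 in *sef1*Δ, against 0.30, 0.10, 0.07 and 0.03 in WT in low iron. In high iron it averaged −1.94 in *sef1*Δ and −1.77 in WT, so that only the low-iron WT arrays stood high. SAKL0F08690g, listed as YER062C and close to the glycerol-3-phosphatases of *S. cerevisiae*, rose by 1.54 in low iron and fell by 0.61 in high iron, with an interaction of 2.15. The neighbours SAKL0H26180g and SAKL0H26202g, of which the second is weakly similar to the iron oxidase FET3 and was not among the iron-uptake genes set aside, fell by 3.00 and 2.45 in low iron. In high iron SAKL0H26180g fell by 1.08, while SAKL0H26202g differed by −0.24 and was not called. CYB2 (SAKL0G16852g) and DLD1, both of lactate oxidation, had interactions of −1.57 and −1.51, also called, and 4 of the 29 respiratory genes were called lower in the interaction.

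Within *sef1*Δ, 282 genes differed between low and high iron (5.34%, 148 higher and 134 lower), and within WT 221 of 5282 (4.18%, 120 higher and 101 lower, 2.27% and 1.91%). Each slide held its high-iron samples in one row of arrays and its low-iron samples in the other, so that iron and position cannot be told apart within a strain. Of the 29 respiratory genes, 9 were lower in low iron in *sef1*Δ and none was higher, while in WT 1 was lower and 2, NDE2 and DLD1, were higher, by 0.65 and 1.09. CYB2 (SAKL0G16852g) fell by 1.48 in low iron in *sef1*Δ and differed by 0.10 in WT. The complex III subunit COR1 fell by 0.88 in low iron in *sef1*Δ and differed by −0.29 in WT, and for COR1 the interaction was not called. Succinate dehydrogenase was lower in low iron in both strains. SDH2 fell by 1.21 in *sef1*Δ and by 0.95 in WT, SDH1 by 0.94 and 0.76, and SDH4 by 0.95 and 0.62. ACO1 fell by 0.88 in *sef1*Δ and differed by −0.55 in WT, not called there.

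**Figure D4:**
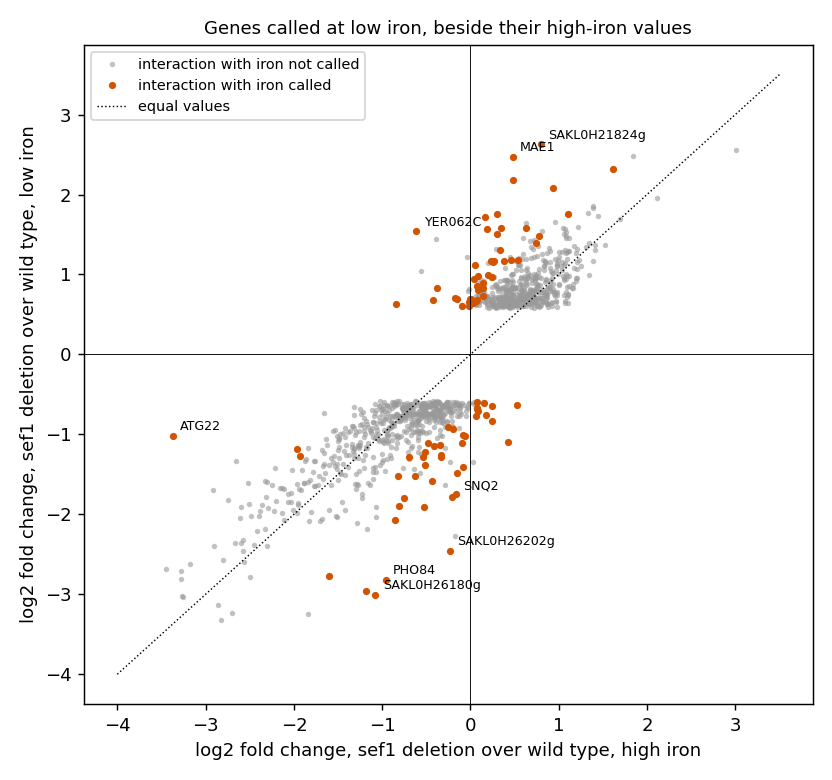
Log2 fold change of *sef1*Δ over WT in low iron (vertical) against high iron (horizontal) for the genes called at low iron, with genes whose interaction with iron was called in orange and the line of equal values dotted. MAE1 and SAKL0H21824g lie far above the line, and PHO84, SNQ2 and SAKL0H26180g far below it.

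Loss of *SEF1* was also measured in cells that lack *AFT1*. In *sef1*Δ *aft1*Δ against *aft1*Δ at low iron, 698 genes were higher and 700 lower (13.2% each, 26.5% together, median 0.01), on arrays that the *sef1*Δ against WT comparison did not use and on 2 slides of 1 scan session. Of the 533 genes higher in *sef1*Δ, 62 were higher here too (11.6% of 533 and 8.88% of 698) and 127 were lower (23.8%). Of the 607 lower genes, 58 were lower here too (9.56% of 607 and 8.29% of 700) and 147 were higher (24.2%).

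IDH1, IDH2 and ACO1 were lower in all 3 comparisons. IDH1 averaged 0.85 ± 0.17 in *sef1*Δ *aft1*Δ and 2.22 ± 0.17 in *aft1*Δ, IDH2 0.97 ± 0.20 and 2.06 ± 0.14, and ACO1 1.5 ± 0.22 and 2.58 ± 0.38 (SD, n = 4 each). They fell by 1.38, 1.09 and 1.09, whereas IDP3 differed by 0.19 there and was not called. In all, 53 genes were called in 1 direction in the low-iron, high-iron and *aft1*Δ comparisons, 21 higher and 32 lower. They come from the 265 higher and 385 lower genes called alike in both iron media. Of all genes, the *aft1*Δ comparison called 13.2% in each direction. By the smallest of the 3 differences, the leading genes were IDH1, IDH2, ACO1, PHO84, SUC2 (invertase), INO1 (inositol synthesis), HXT6, MRPL11, SAKL0H26180g and MIT1, which has some similarity to *gti1* of *Schizosaccharomyces pombe*. Of these 10, only MIT1 rose. SUC2 fell by 2.04 in low iron (−0.76 on its second probe, also called), by 1.07 in high iron and by 4.28 on loss of *SEF1* in *aft1*Δ.

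The carbon and ribosome lists had other counts in the *aft1*Δ background, and the difference between the backgrounds was not tested. PCK1 averaged −1.94 in *sef1*Δ *aft1*Δ and −2.52 in *aft1*Δ, not called, and JEN1 (SAKL0G14938g) −0.34 and −0.68, not called. SFC1 averaged −3.81 in *sef1*Δ *aft1*Δ and −5.15 in *aft1*Δ and rose by 1.34. Among the 26 gluconeogenesis genes, 10 rose and 4 fell there (median 0.44). Of the 38 ribosome biogenesis genes 1 rose and 19 fell (median −0.58), with RLP24 at −1.32 in *sef1*Δ *aft1*Δ and 0.05 in *aft1*Δ, and MAK16 at −2.15 and −0.76. Of the 21 TCA cycle genes, 4 rose and 3 fell, and the 3 were IDH1, IDH2 and ACO1.

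**Figure D5:**
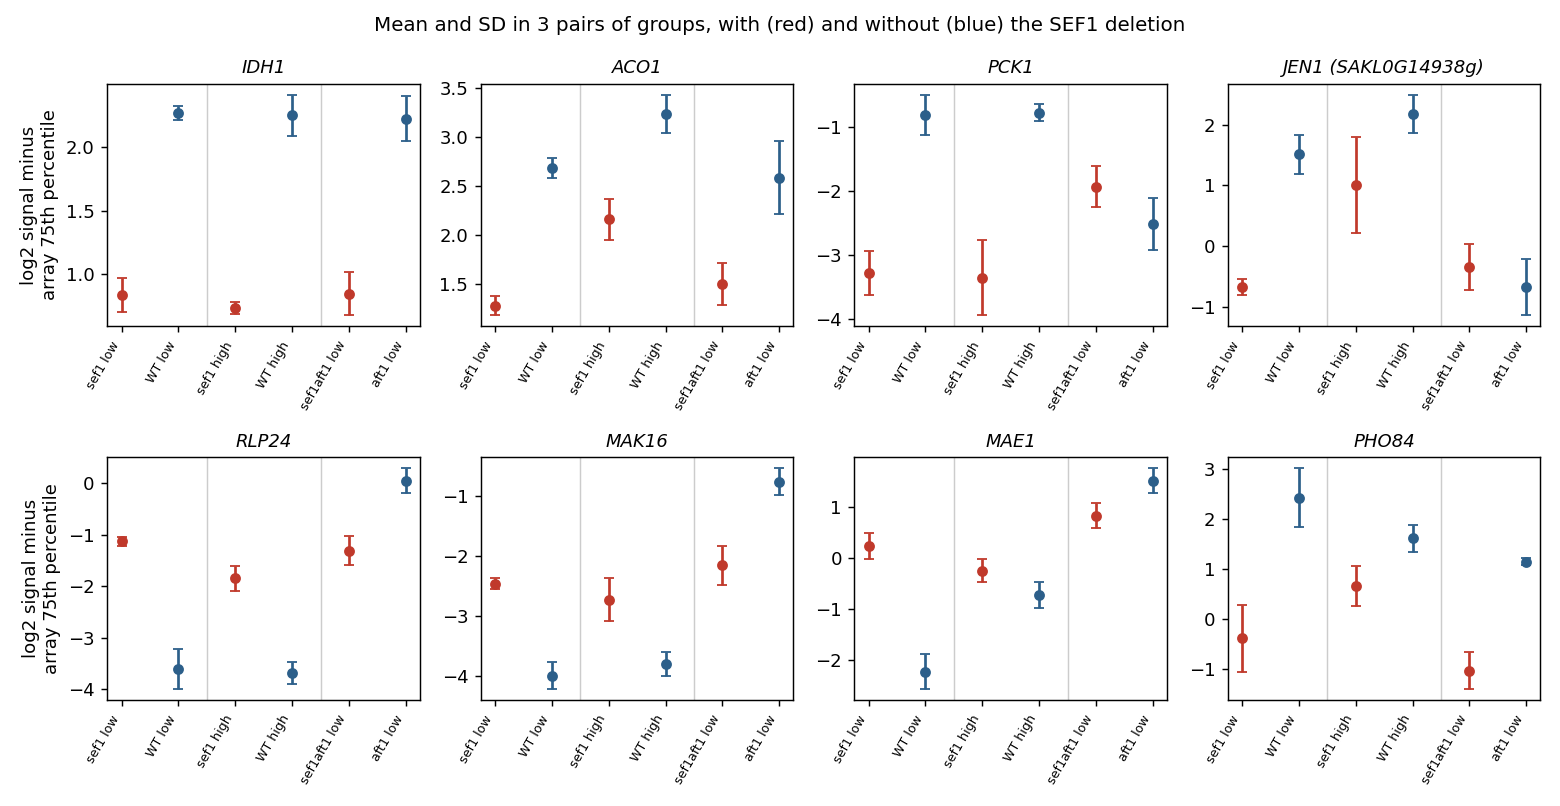
Mean and SD of 8 genes, in log2 signal minus the array's 75th percentile, in 3 pairs of groups with (red, left) and without (blue, right) the *SEF1* deletion: low iron, high iron and low iron in the *aft1*Δ background (n = 4, except 3 for *sef1*Δ in high iron). IDH1, ACO1 and PHO84 lie lower with the deletion in all 3 pairs, and RLP24 and MAK16 lie higher in the first pairs and lower in the last.

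Genes that the study assigned to a Sef1 binding peak were set beside genes without one. Sef1 binding was mapped by chromatin immunoprecipitation in cells with tagged Sef1 on glucose (dextrose) or glycerol medium, not in low iron. Of 716 genes with a peak, 61 were higher and 121 lower in *sef1*Δ at low iron (8.52% and 16.9%, median −0.07), and of 4569 without a peak 472 were higher and 486 lower (10.3% and 10.6%, median 0.00). Genes with a peak in both media were lower in 54 of 265 cases (20.4%), and those with a peak in glycerol only in 65 of 348 (18.7%). Of the 103 with a peak in dextrose only, 12 were higher and 2 lower. These counts are for the main probe and the main scaling only. Over all genes the second probe called 1275 higher and 304 lower, against 533 and 607 on the main probe. RLP24, IDP3, RGT2 and PDH1 were the bound genes with the largest changes. Over the 8 chromosomes, 6.69% to 12.4% of genes were higher and 8.88% to 13.7% lower.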

How the data were processed

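Cells of *L. kluyveri* were profiled on custom 1-colour Agilent arrays with 2 probes for most genes. Per the labels and the study's methods, total RNA was labelled with a fluorescent dye and the authors extracted spots with Agilent Feature Extraction 10.5.1.1. The deposited scanner files hold background-subtracted intensity per spot, and the deposited value table holds log2 values scaled by the authors to the 75th percentile. It served as an alternative. Here the log2 processed intensity minus the 75th percentile of all non-control probes on the array was used. Spots marked as non-uniform were then left out. Each gene was given 1 probe. The study's best-probe list set it for 1999 genes, and the study's tables of expression differences for 919 more. Those tables included the study's results on these same arrays. For the remaining 2398 genes the probe with the higher mean signal was taken.

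Group means of all 31 arrays were fitted with limma 3.58.1 (R 4.3.3, lmFit and eBayes), and p-values were adjusted over all genes tested by Benjamini-Hochberg. The limma test was checked on simulated data. Calls needed a fold of 1.5 and an adjusted p of 0.05. *SEF1* and 29 iron-uptake-related genes were left out after the fit. The groups compared, the gene lists and the members described were chosen with earlier results of these data known. Lists hold *S. cerevisiae* names from the study's ortholog and binding tables (1268 and 542 genes). Other genes, 2790 without a name here included, entered no list. For a probe below background in a whole group only a lower bound on the fold was taken. The named genes were *SEF1*, the 15 largest rises and falls, the 10 largest of each among genes with a name, all TCA cycle genes, up to 4 called members per list, 5 neighbours on each side of *SEF1*, the 10 leading genes called in 3 comparisons and the 5 largest interactions of each sign. Other list members are given to complete a list and were chosen after their values were seen. Alternatives changed the test, background, scaling, probe, filter, fold and replicate set. Precision rests on the number of arrays. The labels call the arrays biological repeats, and replicate numbers did not pair the strains, since correlations of same-numbered deviations were −0.105, −0.016, −0.099 and −0.001.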

Additional observations from a re-analysis of the deposited data

Results flagged for a closer look

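Among 266 groups of 4 arrays of the named genes, 12 held 1 array whose gap to the nearest other, divided by the whole range of the group, was above Dixon's critical value. Chance sets apart about 1 in 20 groups. In *sef1*Δ at low iron these were TRP1 (0.984), FUM1 (0.869), PRX1 (0.857), TRR2 (0.921), HSP10 (0.904), PMC1 (0.893), SAKL0H26180g (0.847) and FET3 SAKL0H26202g (0.879). In WT they were RGT2 (0.842), KIP1 (0.849), LYS14 (0.966) and LYS4 (0.854). The *sef1*Δ array apart was replicate 3 for FUM1 (0.12, the others 0.33 to 0.36), PRX1 (0.46, the others 0.23 to 0.26), TRR2 (2.15, the others 1.46 to 1.51) and HSP10 (2.35, the others 1.89 to 1.93). It was replicate 1 for the neighbours SAKL0H26180g (−3.53, the others −4.60 to −4.44) and SAKL0H26202g (−4.20, the others −5.53 to −5.37). For TRP1 it was replicate 4 (−0.45, the others −0.65) and for PMC1 replicate 2 (0.69, the others 0.29 to 0.33). In WT it was replicate 4 for LYS14 (−0.04, the others −0.58 to −0.56) and LYS4 (0.91, the others 0.33 to 0.42), replicate 1 for RGT2 (2.67, the others 2.01 to 2.12) and replicate 3 for KIP1 (−1.32, the others −1.46 to −1.44).

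For 10 genes called at low iron the strain difference itself depended on iron, with the largest interactions called by limma. They were positive for ATG22 (2.36, SAKL0E02046g), SAKL0F08690g, listed as YER062C (2.15), MAE1 (1.99), SAKL0H21824g (1.84) and SAKL0B04620g (1.70), with adjusted p from 5.33e-05 to 0.00124. They were negative for FET3 SAKL0H26202g (−2.22), SAKL0H26180g (−1.93), PHO84 (−1.86), SAKL0D15224g (−1.78) and SNQ2 (−1.59), with adjusted p from 0.00148 to 0.0339. ATG22, named for a vacuolar amino acid exporter, averaged −2.70 in *sef1*Δ and −1.69 in WT in low iron, and −6.11 in *sef1*Δ and −2.74 in WT in high iron. Its second probe gave 0.13 in low iron. SAKL0B04620g averaged 0.24 in *sef1*Δ and −1.94 in WT in low iron, and −0.92 in *sef1*Δ and −1.40 in WT in high iron. SAKL0D15224g was not well above background on any *sef1*Δ array and was at least 2.15-fold lower there than in WT, where 2 of 4 arrays measured it.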

How the results depend on the processing

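The probe of each gene and the fold threshold moved the counts most. On the second probe, available for 5273 genes, the median of all genes was 0.21 and 1275 genes were higher and 304 lower; the mean of both probes gave 746 higher and 384 lower. Of 1135 called genes with a second probe, 948 (83.5%) kept their sign. Among the genes named by the rule, the sign of the low-iron difference turned on the second probe for LEU5 (0.689), MNE1 (0.408), HXT14 (0.015), ATG22 (0.127), SHC1 (0.595), LYS14 (0.247), UGA4 (0.488), LYS4 (0.208), SSY1 (0.109), BPT1 (0.593) and STR3 (−0.998), and, with no call on either probe, for FUM1 (0.118), MDH3 (−0.031) and SAKL0F12452g (0.553), and the cause was not tested. At a fold of 2 the counts were 128 higher, 245 lower, 4 TCA cycle genes lower, 8 ribosome biogenesis genes higher, 5 transporters of amino acids and nitrogen lower and 37 interactions. On the second probe 5 of those transporters were lower.

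Leaving out 1 array gave 503 to 567 higher genes and 578 to 650 lower. By list, 9 to 11 TCA cycle genes and 18 to 19 gluconeogenesis genes were then lower. The ranges were 14 to 19 ribosome biogenesis genes higher and 8 to 10 genes of the amino acid and nitrogen transport list lower. With the replicate block the counts were 530 higher and 609 lower, and no call of a named gene changed. Higher and lower counts were 368 and 707 after quantile normalization, 370 and 833 with the array median, 457 and 600 with normexp, and 529 and 612 from the authors' table. Spots near background limit CIT3 and SAKL0D15224g.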
